A study of Mus musculus with 10 samples.

Results

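The secreted Wnt antagonists are 10 genes, *Dkk1*, *Dkk2*, *Dkk3*, *Sfrp1*, *Sfrp2*, *Sfrp4*, *Sfrp5*, *Frzb*, *Wif1* and *Sostdc1*, among the 32285 genes counted in single cells of the developing mouse lower incisor. They were chosen by name, as proteins released from cells that limit Wnt signaling. All were measured in wild type NMRI embryos, with no other genotype or treatment named in the labels. The study's methods describe whole mandibles at E11.5 and lower incisor buds dissected at E14.5 and E16.5, while the labels give the developing incisor as the tissue at each stage. E11.5 and E14.5 each have 4 labelled samples and E16.5 has 2, from several litters by the methods, yet every stage was deposited as 1 matrix in which a cell cannot be traced to its sample. Each stage was therefore 1 sample with no replicates. No test was made, and the intervals printed are at the 95% level and cover counting error only. From E11.5 to E14.5 the stage and the dissection change together and cannot be told apart.

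On the mouse genome (GRCm38, GENCODE) the 10 protein-coding genes lie on several chromosomes. *Dkk1* is at chr19:30545863-30549665 and *Sfrp5* at chr19:42197971-42202252, both on the minus strand. *Dkk2* is at chr3:132085292-132180304 and *Sfrp2* at chr3:83766321-83774316, both on the plus strand. *Dkk3* is at chr7:112116017-112159057 and *Frzb* at chr2:80411970-80447625, on the minus strand. *Sfrp1* is at chr8:23411502-23449632, *Sfrp4* at chr13:19623104-19632994, *Wif1* at chr10:121033960-121100650 and *Sostdc1* at chr12:36314139-36318452, on the plus strand.

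Wnt ligands act by binding Frizzled receptors together with the co-receptors Lrp5 and Lrp6, which stabilizes β-catenin and turns on genes such as *Axin2* and *Lef1*. The antagonists interfere at different points. The secreted Frizzled-related proteins (*Sfrp1*, *Sfrp2*, *Sfrp4*, *Sfrp5* and *Frzb*, also called Sfrp3) carry a domain like the ligand-binding part of Frizzled and bind Wnt proteins, as *Wif1* does through another domain. The Dickkopf proteins *Dkk1* and *Dkk2* bind the co-receptors, and *Dkk3* is a divergent relative whose part in Wnt signaling is less clear. *Sostdc1*, also called ectodin or Wise, binds both Bmp proteins and the Wnt co-receptors and is known in teeth for limiting tooth number. In tooth development, epithelium and the mesenchyme beneath it signal to each other, and the enamel knot, a group of epithelial cells that expresses *Shh* and *Fgf4*, is a center of that exchange.

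Cells were barcodes that had at least 700 genes and at most 20% mitochondrial UMIs (unique molecular identifiers, each counting a captured RNA molecule). The E11.5 matrix held 6573 of them with a median depth of 5664 UMIs, the E14.5 matrix 6091 with 3471 UMIs and the E16.5 matrix 4511 with 6260 UMIs. Pairs of stages shared 13 to 17 barcodes. Each cell was assigned to a lineage from markers other than the antagonists, and the names below carry "-like" for this reason. Mesenchyme-like cells numbered 5297, 4582 and 2511, and epithelium-like cells numbered 12, 676 and 1485, in order of stage. The 12 markers of mesenchyme summed to between 2198 and 5175 CPM (UMIs of a gene scaled to a common total of UMIs per group) in mesenchyme-like cells and to 126 and 121 CPM in epithelium-like cells at E14.5 and E16.5, where *Col1a2* supplied 61.2% and 66.4% of that sum. The 10 markers of epithelium summed to 1792 and 2399 CPM in epithelium-like cells, and to 4.57, 65.3 and 151 CPM in mesenchyme-like cells of the 3 stages, beside 2.68, 78.4 and 146 CPM in endothelium-like cells. The epithelium-like group of E11.5 was too small for levels. Since a UMI counts the 3′ end of a transcript, CPM was not divided by gene length.

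Summed over the 10 genes, the antagonists amounted in mesenchyme-like cells to 232 CPM at E11.5 (interval 227 to 237), then 838 CPM (825 to 852) and, by E16.5, 1572 CPM (1554 to 1590). In epithelium-like cells they amounted to 503 CPM at E14.5 (484 to 521) and later 855 CPM (841 to 869). Endothelium-like cells, taken as a lineage with little of these transcripts, held 20.1, 82.6 and 52.8 CPM. Their call needed endothelial markers to lead those of other lineages, so cells with as many mesenchymal markers were not among them. Erythroid-like cells, called without such a lead, held more of some antagonists. *Sostdc1* stood there at 4.48, 220 and 292 CPM in order of stage, and *Sfrp2* at 10.1, 15.5 and 107 CPM. Whether these counts came from RNA of other cells was not tested. The makeup of the sum differed. At E11.5 *Sfrp1*, *Sfrp2* and *Frzb* each gave between 21.8% and 24.2% of the mesenchymal sum. By E14.5 *Sostdc1* gave 40.3% and *Sfrp4* 20.3%, and in the E16.5 matrix *Sfrp2* gave 32.6%, *Sostdc1* 28.3% and *Wif1* 12.35%. The epithelial sum was mostly *Sostdc1*, 83.7% at E14.5 and later 91.01%.

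**Figure D1:**
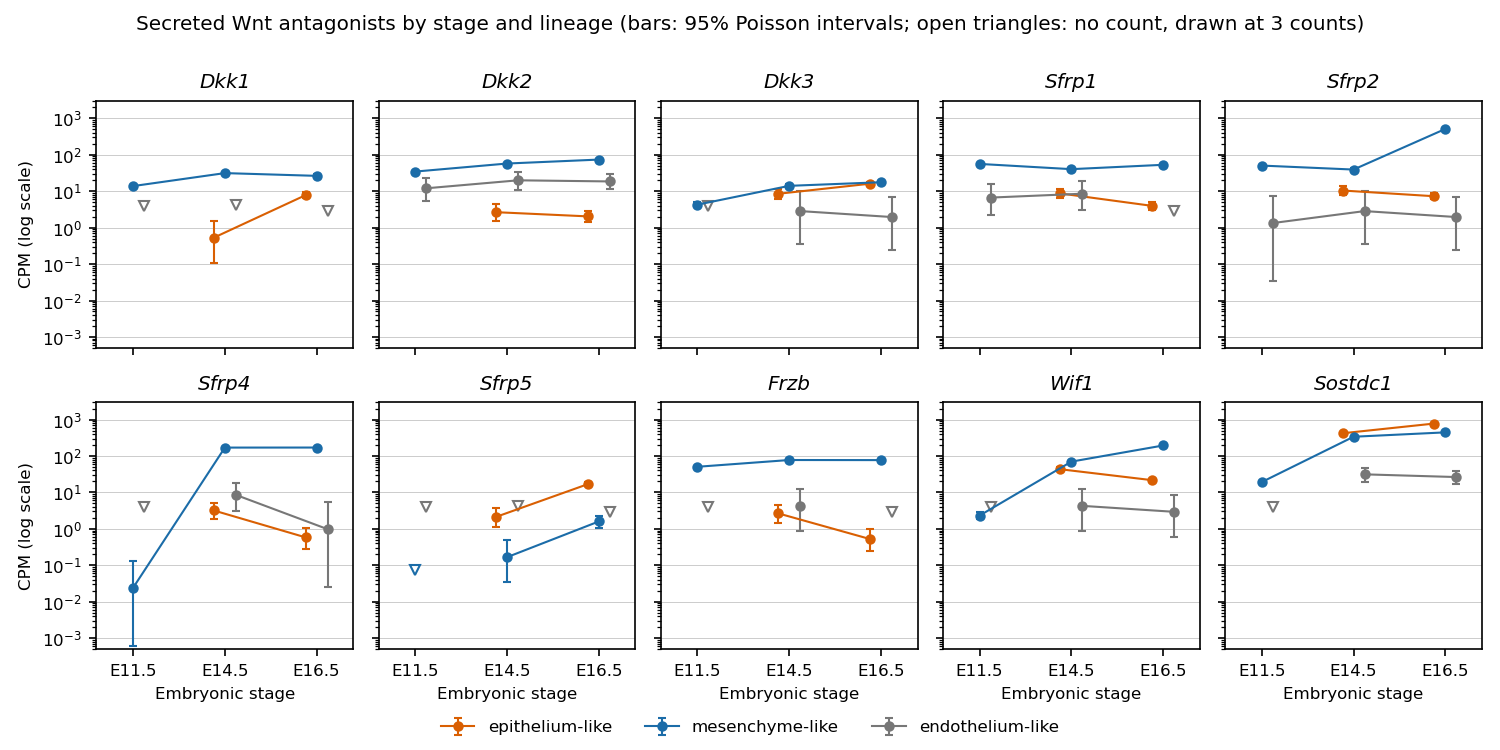
Level of each antagonist (CPM, log scale) by stage in epithelium-like, mesenchyme-like and endothelium-like cells. Points are summed counts of 1 sample per stage, bars are 95% Poisson intervals, and open triangles mark groups without a count, drawn at the level of 3 counts. In mesenchyme-like cells *Sostdc1* goes from 19.3 CPM at E11.5 to 338 CPM at E14.5, and *Sfrp2* from 39.4 CPM at E14.5 to 512 CPM at E16.5.

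Most antagonists were more abundant in the mesenchyme. At E14.5, with levels called different past 2-fold on the scale of log2(CPM + 10) among genes with at least 20 counts in both groups together, 6 of the 9 antagonists compared were lower in epithelium-like than in mesenchyme-like cells and 0 were higher. Of all 13028 genes compared, 6.88% passed, 3.68% lower and 3.2% higher. At E16.5, 7 of 10 were lower and 1 was higher, where 6.95% of 14122 genes passed, 3.91% lower and 3.04% higher. The median log2 ratio over the antagonists compared was -1.43 at E14.5 and -2.43 at E16.5, and over all genes 0.01 and 0.03.

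**Figure D2:**
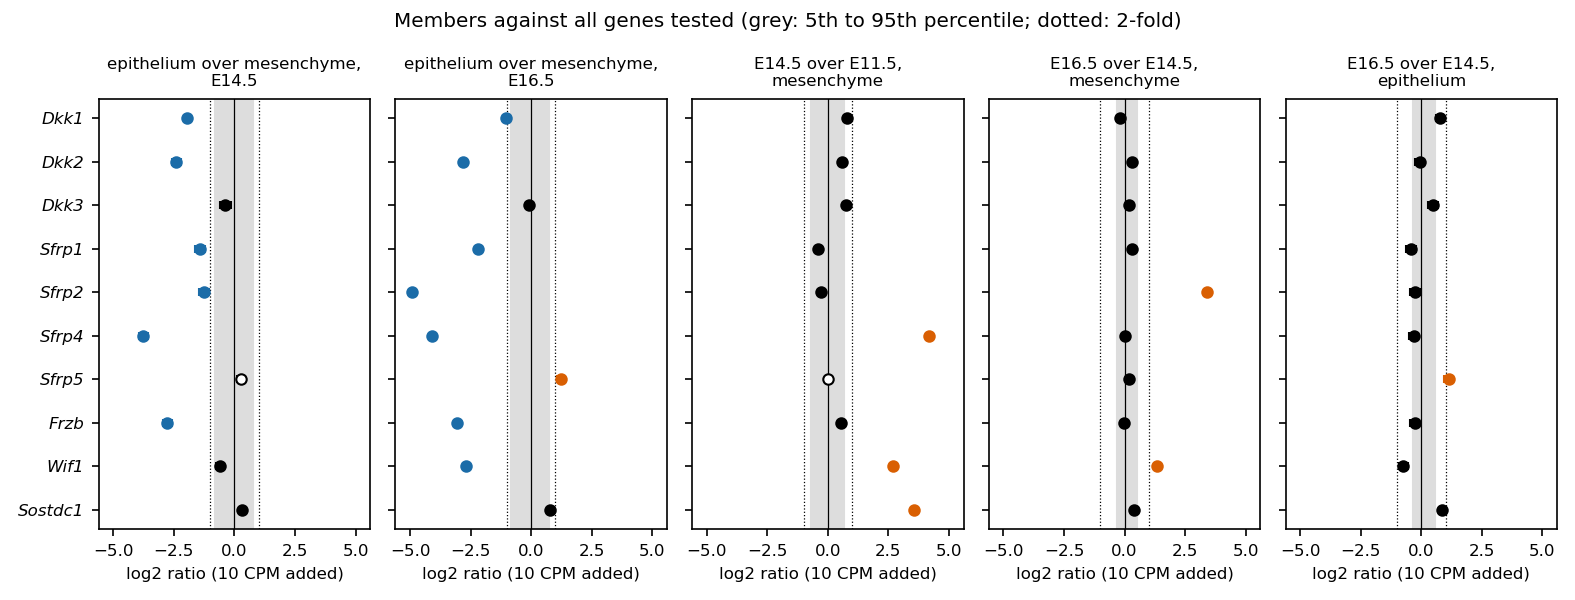
Log2 ratios of the 10 antagonists in 5 comparisons, with 10 CPM added to both sides. Orange points are higher and blue points lower past 2-fold (dotted lines), black points did not pass, open points had fewer than 20 counts, bars are counting intervals and the grey band holds the 5th to 95th percentile of all genes compared. In both comparisons of epithelium with mesenchyme most points lie left of the band.

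Among the secreted Frizzled-related proteins, *Sfrp4*, *Frzb*, *Sfrp1* and *Sfrp2* were lower in the epithelium at both stages. At E16.5 *Sfrp4* stood at 171 CPM in mesenchyme-like cells (165 to 177) and 0.583 CPM, 10 counts, in epithelium-like cells, a level 293-fold lower (159 to 611). At E14.5 it stood at 170.1 CPM and 3.19 CPM, 53.3-fold lower in epithelium-like cells (33.7 to 90.1). The epithelial levels did not exceed the 8.55 and 0.978 CPM of endothelium-like cells. *Frzb* had 77.5 CPM at E14.5 and 77.1 CPM at E16.5 in mesenchyme-like cells against 2.66 and 0.525 CPM in epithelium-like cells, 29.2-fold (17.6 to 52.3) and 147-fold lower (77.2 to 322). *Sfrp1* was at 40.4 and 53.1 CPM in mesenchyme-like cells and at 8.69 and 3.96 CPM in epithelium-like cells, 4.65-fold (3.48 to 6.34) and 13.4-fold lower (10.48 to 17.4).

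*Sfrp2* differed between the tissues by a modest factor at E14.5 and a large factor at E16.5. At E14.5 it stood at 39.4 CPM in mesenchyme-like and 10.46 CPM in epithelium-like cells, 3.76-fold lower (2.88 to 4.995), and at E16.5 at 512 and 7.29 CPM, 70.3-fold lower (58.95 to 84.6). In endothelium-like cells it stood at 2.85 and 1.96 CPM.

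*Sfrp5* was the exception among these genes. It had no count in 5297 mesenchyme-like cells at E11.5, with an interval of 0 to 0.089 CPM. At E14.5 it had 12 counts in epithelium-like cells and 3 in mesenchyme-like cells, too few for a call. At E16.5 it stood at 16.9 CPM in epithelium-like cells (15.0 to 18.9) and 1.60 CPM in mesenchyme-like cells (1.08 to 2.28), 10.6-fold higher in the epithelium (7.24 to 15.9). Of the 30 counts in mesenchyme-like cells 21 came from a cluster of 44 cells, described below, that also carried epithelial keratins. Endothelium-like cells had no count of *Sfrp5* at either stage.

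The Dickkopf genes did not share a pattern. *Dkk2* was higher in the mesenchyme than in the epithelium. It stood at 34.7, 57.6 and 73.9 CPM in mesenchyme-like cells of the 3 stages. In epithelium-like cells it stood at 2.66 and 2.04 CPM at E14.5 and E16.5, 21.7-fold (13.1 to 38.8) and 36.2-fold lower (25.9 to 52.2). It was not confined to mesenchyme-like cells. The 28 glia- or neural crest-like cells of E14.5 had 19 counts of it among 127629 UMIs, beside 1036 among 17991855 in mesenchyme-like cells. *Dkk1* was at 31.5 CPM in mesenchyme-like and 0.532 CPM, 3 counts, in epithelium-like cells at E14.5, 59.2-fold lower with an interval of 20.1 to 288. At E16.5 its epithelial level was 7.81 CPM (6.55 to 9.25) against 26.4 CPM in the mesenchyme, 3.38-fold lower (2.79 to 4.13), and its log2 ratio of -1.03 lay just past the 2-fold limit. It was -0.74 in cells thinned to 2000 UMIs, -0.83 as a mean over cells and -0.40 with 50 CPM added, inside the limit in each. *Dkk3* was low in both tissues, with 8.51 and 14.1 CPM at E14.5 and 16.1 and 17.7 CPM at E16.5 in epithelium-like and mesenchyme-like cells. At E16.5 the interval of the epithelial over the mesenchymal level of *Dkk3*, 0.774 to 1.07, included equality.

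*Sostdc1* was abundant in both tissues and *Wif1* in the mesenchyme, while few epithelium-like cells had *Wif1*. With all UMIs counted, 9.47% and 11.6% of epithelium-like cells had a UMI of *Wif1* at E14.5 and E16.5. For *Sostdc1* these shares were 58.0% and 72.3%. *Wif1* stood at 43.2 CPM in epithelium-like cells and 70.0 CPM in mesenchyme-like cells at E14.5, 1.62-fold lower in the epithelium and not past the limit. At E16.5 it stood at 21.7 and 194 CPM, 8.95-fold lower (8.05 to 9.99). *Sostdc1* was the most abundant antagonist in epithelium-like cells at both stages, at 420.4 CPM (404 to 438) and 778 CPM (765 to 791), beside 338 and 445 CPM in mesenchyme-like cells. The epithelial level was 1.25-fold (1.19 to 1.31) and 1.75-fold higher (1.70 to 1.80), neither past the limit. In endothelium-like cells *Sostdc1* stood at 31.3 and 26.4 CPM.

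*Sfrp4*, *Sostdc1*, *Wif1* and *Sfrp2* passed 2-fold between stages in the mesenchyme. From E11.5 to E14.5, 3 of the 9 antagonists compared in mesenchyme-like cells were higher past 2-fold and 0 were lower, where 4.25% of 14220 genes passed, 2.56% higher and 1.69% lower. *Sfrp4* had 1 count among 41378913 UMIs at E11.5 and 3060 counts at E14.5, a ratio of 7038 with an interval of 1262 to 278060. *Wif1* went from 2.32 CPM (1.88 to 2.83) to 70.0 CPM (66.2 to 74.0), 30.2-fold higher (24.5 to 37.5). *Sostdc1* went from 19.3 CPM (18.0 to 20.7) to 338 CPM (329 to 346), 17.5-fold higher (16.3 to 18.9). The shares of cells with a UMI were compared after thinning each cell to 2000 UMIs, which left out 416 and 652 shallower mesenchyme-like cells. A UMI of *Sfrp4* was then found in 0% and 24.6% of mesenchyme-like cells and of *Sostdc1* in 3.83% and 32.5%. In endothelium-like cells, thinned alike, the shares were 0% and 0% for *Sfrp4* and 0% and 4.50% for *Sostdc1*. Before thinning, 0.0189% and 32.4% of mesenchyme-like cells had a UMI of *Sfrp4*, 1.66% and 18.7% one of *Wif1*, and 10.4% and 41.75% one of *Sostdc1*, at median depths of 6191 and 3274 UMIs. The endothelium-like cells had 6649 and 3262 UMIs.

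The other antagonists compared did not pass 2-fold. *Sfrp1*, at 56.2 CPM at E11.5, *Sfrp2*, at 50.6 CPM, and *Frzb*, at 50.6 CPM, were at 0.718, 0.778 and 1.53 times these levels at E14.5. *Dkk1*, *Dkk2* and *Dkk3* were at 2.27, 1.66 and 3.29 times their E11.5 levels of 13.9, 34.7 and 4.28 CPM, and with 10 CPM added none passed the limit. The clusters that held most mesenchyme-like cells differed by stage. At E11.5 the largest was led by *Shox2*, *Osr2* and *Crym* (26.6%), and at E14.5 by *Ibsp*, *Igfbp5* and *Alpl* (32.7%). The part of this difference in the changes of level was not tested.

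From E14.5 to E16.5, 2 of the 10 antagonists were higher past 2-fold in mesenchyme-like cells and 0 were lower, where 1.4% of 13788 genes passed, 1.06% higher and 0.341% lower. *Sfrp2* went from 39.4 CPM (36.5 to 42.4) to 512 CPM (502 to 523), 13.0-fold higher (12.1 to 14.1). *Wif1* went from 70.0 to 194 CPM (188 to 201), 2.77-fold higher (2.60 to 2.96). At equal depth the cells with a UMI of *Sfrp2* were 7.12% and 37.7% of mesenchyme-like cells and 0.901% and 0.917% of endothelium-like cells (10.56% and 55.0% against 1.39% and 1.74% before thinning). In single cells the highest count of *Sfrp2* was 14 at E14.5 and 175 at E16.5. *Sfrp4* (170.1 and 171 CPM) and *Frzb* (77.5 and 77.1 CPM) were at ratios of 1.003 (0.954 to 1.05) and 0.995 (0.923 to 1.07). *Sostdc1*, *Sfrp1*, *Dkk2* and *Dkk3* were at 1.26 to 1.32 times their E14.5 level, and *Dkk1* at 0.840 times. *Sfrp5* went from 3 counts to 30, and at E16.5 the largest cluster, with 21.7% of the cells, was led by *Rspo2*, *Dclk1* and *Gldn*.

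In epithelium-like cells, 1 antagonist was higher past 2-fold at E16.5 than at E14.5 and 0 were lower, where 1.39% of 12912 genes passed, 1.1% higher and 0.294% lower. That gene was *Sfrp5*, which went from 2.13 CPM (1.10 to 3.71) to 16.9 CPM, 7.92-fold higher (4.46 to 15.5). *Sostdc1* went from 420.4 to 778 CPM, 1.85-fold (1.77 to 1.93), and *Wif1* from 43.2 to 21.7 CPM, 1.99-fold lower (1.69 to 2.35), both short of the limit. At E14.5, 79.9% of the epithelial *Wif1* counts lay in a cluster of 51 cells, described below. *Dkk1* went from 3 counts to 134 counts, a ratio of 14.7 (4.92 to 72.1). It did not pass with 10 CPM added, since its level at E16.5 was below 10 CPM. *Dkk3* was at 1.89 times its E14.5 level. *Sfrp1*, *Sfrp2*, *Sfrp4*, *Frzb* and *Dkk2* were at or below 10.46 CPM at both stages. The largest epithelial cluster was led by *Crabp1*, *Creb3l1* and *Tshz2* at E14.5 (25.1%) and by *Fat2*, *Ppargc1a* and *Fst* at E16.5 (20.9%).

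Windows of 250 bases before the RefSeq transcription start (GRCm38.p6) were at hand for 6 of the 10 genes, and 3 that lie wholly outside the GENCODE gene are printed: *Sfrp2*, higher in the later mesenchyme, *Sfrp5*, higher in the epithelium, and *Dkk2*, which holds a TATA box motif. Capitals mark a match on either strand to the TATA box letters TATAAA. Also searched were sequences of the kind that Tcf and Lef factors are known to bind. These were CTTTGAT on either strand and, as a variant of it, CTTTGAA.
Sfrp2, chr3:83766071-83766320, plus strand: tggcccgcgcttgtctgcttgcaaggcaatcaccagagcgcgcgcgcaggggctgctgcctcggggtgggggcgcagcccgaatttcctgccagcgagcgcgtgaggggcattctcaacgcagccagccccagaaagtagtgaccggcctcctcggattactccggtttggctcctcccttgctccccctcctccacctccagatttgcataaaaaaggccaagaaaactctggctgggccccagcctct
Sfrp5, chr19:42202253-42202502, minus strand: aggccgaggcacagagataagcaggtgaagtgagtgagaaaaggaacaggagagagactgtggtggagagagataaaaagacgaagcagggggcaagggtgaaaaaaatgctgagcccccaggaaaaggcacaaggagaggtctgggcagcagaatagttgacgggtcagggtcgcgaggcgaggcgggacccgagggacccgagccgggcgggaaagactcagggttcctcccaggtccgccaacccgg
Dkk2, chr3:132085042-132085291, plus strand: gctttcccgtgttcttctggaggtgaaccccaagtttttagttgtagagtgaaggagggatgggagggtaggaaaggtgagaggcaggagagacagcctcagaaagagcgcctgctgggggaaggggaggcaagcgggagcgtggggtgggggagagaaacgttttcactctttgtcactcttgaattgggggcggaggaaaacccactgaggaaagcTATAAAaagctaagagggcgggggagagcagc
TATAAA lay 32 bases before the start of *Dkk2*, and 12.4% of 32851 windows of this length hold it. It was also in the window of *Dkk1*, 54 bases before the start. In the window of *Wif1* it lay 232 bases before the start, on the opposite strand. These windows of *Dkk1* and *Wif1* have 169 and 44 bases inside the GENCODE gene. CTTTGAA was in the window of *Dkk1* only, among the 6, and is in 4.46% of all windows. CTTTGAT was in none of the 6 and is in 3.21% of all windows.

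Within the epithelium, the levels of some antagonists differed between clusters. Epithelium-like cells of each stage were clustered on 2000 variable genes from which the antagonists had been left out, and the clusters are called by their leading genes. At E14.5, a cluster of 51 cells led by *Shh*, *Fgf4* and *Thbs1* held the genes known from the enamel knot. *Shh*, the hedgehog ligand, stood there at 809 CPM and in the other clusters of at least 50 cells at 88.7 CPM or less. In that cluster *Wif1* stood at 471 CPM (407 to 542), with 195 counts, and *Sostdc1* at 19.3 CPM (8.35 to 38.1), with 8 counts. In the other 4 clusters of at least 50 cells the order was the opposite. *Sostdc1* stood there at 326 to 666 CPM and *Wif1* at 2.87 to 18.9 CPM. The 51 cells, 7.54% of the epithelium-like cells, held 79.9% of all *Wif1* counts and 0.337% of the *Sostdc1* counts. A *Wif1* UMI was in 66.7% of these cells and a *Sostdc1* UMI in 7.84%. *Dkk3* was also at its highest there, at 31.4 CPM (16.7 to 53.7), though its interval overlapped that of the next cluster, at 17.4 CPM (11.2 to 25.9).

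The cluster led by *Igfbp5*, *Col1a2* and *Dcn*, of which *Col1a2* is a mesenchymal marker, had the highest *Sfrp2*, at 18.6 CPM, and *Sfrp4*, at 7.14 CPM, of the stage, with intervals that overlapped those of the next cluster.

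*Wif1* and *Sostdc1* were also opposed cell by cell among all epithelium-like cells of E14.5. These include the 51 *Shh*-led cells, 66.7% of which had a *Wif1* UMI, so the shares partly restate the difference between clusters. Thinned to 2000 UMIs, 10.3% of the 39 epithelium-like cells of E14.5 with a *Wif1* UMI also had a *Sostdc1* UMI (2.87 to 24.2), against 42.8% of the 582 cells without *Wif1* (38.7 to 46.9). A *Shh* UMI was in 41.0% of the cells with *Wif1* (25.6 to 57.9) and in 5.84% of those without (4.08 to 8.07). *Lef1*, a gene turned on by Wnt signaling and also a transcription factor of that pathway, was in 35.9% (21.2 to 52.8) and 8.08% (5.99 to 10.6). Before thinning, at median depths of 5012 and 5194 UMIs, *Sostdc1* was in 21.9% and 61.8% of the cells with and without *Wif1*, and *Shh* in 64.1% and 9.15%.

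At E16.5 *Shh* was high in several clusters (245, 208 and 133 CPM in those led by *Ube2c*, *Aldh1a3* and *Enpp2*), with 544 CPM in a cluster of 214 cells led by *Slc40a1*, *Stmn2* and *Vwde*, in which *Ambn*, an enamel matrix gene, was among the 10 leading genes. This cluster had the highest *Wif1*, at 55.2 CPM (45.9 to 65.7), and the highest *Dkk3*, at 36.6 CPM (29.2 to 45.4). *Sostdc1* stood there at 322 CPM (299 to 347). Among cells thinned to 2000 UMIs, *Shh* was in 8.87% of the 733 cells with a *Sostdc1* UMI (6.91 to 11.2) and in 29.4% of the 663 without (26.0 to 33.0), and in 21 of the 42 cells with *Wif1* (34.2% to 65.8%) against 17.65% of the other 1354 (15.7 to 19.8). Before thinning *Shh* was in 24.4% and 48.7% of cells with and without *Sostdc1*, at median depths of 8455 and 5392 UMIs.

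The highest *Sostdc1* level of any epithelial cluster was 1739 CPM (1699 to 1778), in 311 cells of E16.5 led by *Fat2*, *Ppargc1a* and *Fst*, where 95.2% of cells had a UMI of it. These cells were 20.9% of the epithelium-like cells and held 55.8% of the epithelial *Sostdc1* counts. The next cluster, at 628 CPM (598 to 660), was led by *Pcp4*, *Crabp1* and *Pthlh* and was the cluster with the highest *Sox2*, a gene of the incisor's epithelial stem cells, at 90.1 CPM. The other clusters of E16.5 lay between 317 and 516 CPM.

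*Sfrp5* was highest in that *Sox2*-rich cluster of 187 cells, at 50.9 CPM (42.6 to 60.5). It held 44.98% of the epithelial *Sfrp5* counts in 12.6% of the cells. The next cluster, the *Fat2*-led cells, stood at 17.5 CPM (13.8 to 22.0), and the clusters led by *Enpp2* and by *Slc40a1* at 0.868 and 4.41 CPM. At E14.5, 10 of the 12 *Sfrp5* counts lay in the cluster led by *Crabp1*, *Creb3l1* and *Tshz2*, at 5.74 CPM (2.75 to 10.6), where *Sox2* stood at 67.8 CPM. The cluster of E14.5 with the highest *Sox2*, 89.9 CPM, was led by *Krt15*, *Meis2* and *Krt6a* and had no *Sfrp5* count. In single cells the pair was rarely seen together. Of the 122 cells of E16.5 with an *Sfrp5* UMI 14.75% had a *Sox2* UMI, against 7.34% of the others, but the first were deeper (medians of 14736.5 and 6965 UMIs), and after thinning 0 of 34 cells had both, which the interval of 0 to 10.3% leaves within counting error of the 2.13% in the others.

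*Dkk1* in the epithelium of E16.5 was highest in the clusters led by the cell cycle genes *Ube2c*, *Spc25* and *Hist1h2ae*, at 18.2 CPM (14.6 to 22.5), and by *Aldh1a3*, *Ltb* and *Chaf1b*, at 12.1 CPM (7.77 to 18.05), with intervals that overlapped. These 2 clusters held 63.4% and 17.9% of its counts. In the *Sox2*-rich and *Fat2*-led clusters it stood at 0.392 and 1.40 CPM. A cluster of 85 cells led by *Gm42418*, *AY036118* and *Bnip1* had 0.0557% mitochondrial UMIs and a median of 2515 UMIs, and 7 of the 10 genes had no count in it.

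**Figure D3:**
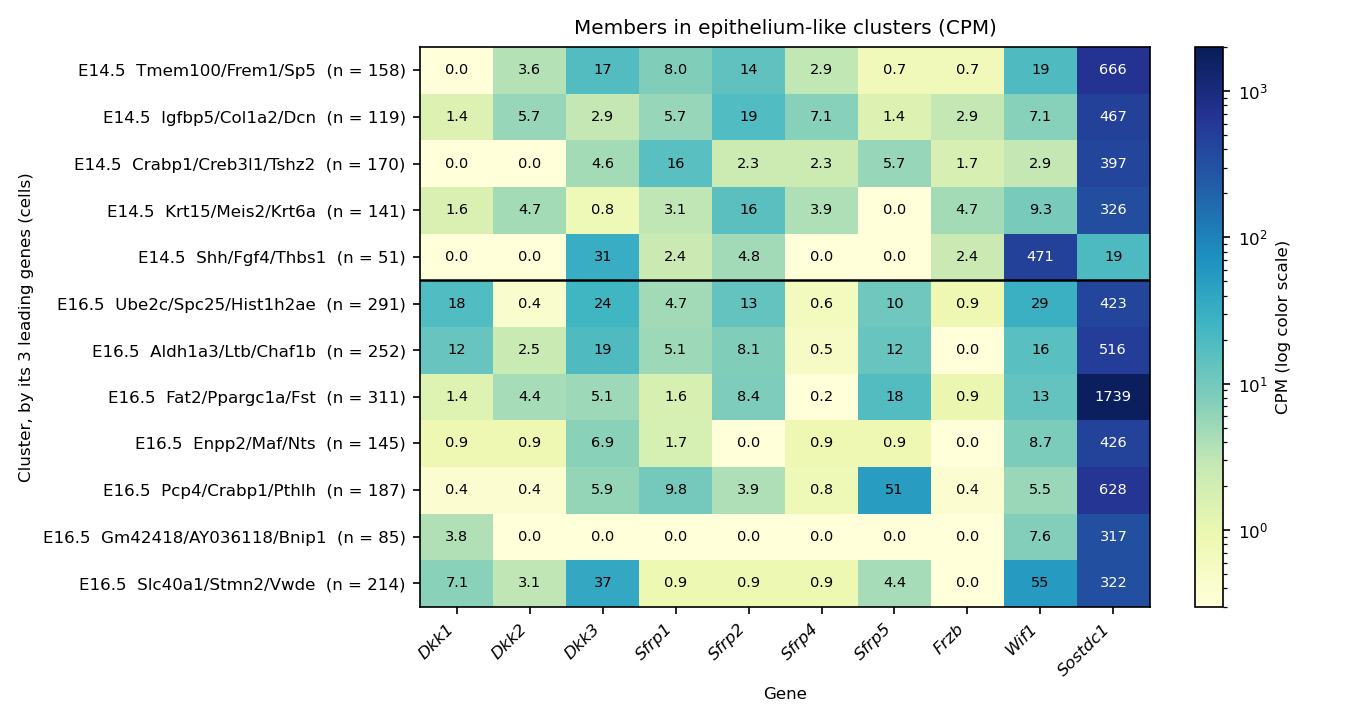
Level of each antagonist (CPM, log color scale, printed in each cell of the map) in the epithelium-like clusters of at least 50 cells at E14.5 (upper 5) and E16.5 (lower 7), each called by its 3 leading genes. The *Shh*/*Fgf4*/*Thbs1* cluster has *Wif1* at 471 and *Sostdc1* at 19 CPM, the *Fat2*-led cluster has *Sostdc1* at 1739 CPM and the *Pcp4*-led cluster has *Sfrp5* at 51 CPM.

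Levels also differed between clusters of the mesenchyme. At E11.5, *Dkk1* was highest in 1121 cells led by *Pax3*, *Msx1* and *Msx2*, at 40.2 CPM (36.4 to 44.4), which held 69.6% of its counts, and the other clusters of at least 50 cells lay between 2.54 and 13.0 CPM. *Msx1*, a homeobox gene of the early tooth mesenchyme, stood there at 570 CPM. The markers of dental mesenchyme, *Msx1* among them, summed to 806 CPM in this cluster. They summed to more, 1171 CPM, in the *Shox2*-led cluster, where *Msx1* stood at 156 CPM and *Dkk1* at 2.54 CPM. In the *Pax3*-led cluster *Sfrp1*, at 26.8 CPM, and *Sfrp2*, at 29.2 CPM, were at their lowest among clusters of at least 50 cells. The highest *Sfrp2*, at 80.2 CPM, was in the cluster led by *Shox2*, *Osr2* and *Crym*, though its interval overlapped that of a cluster of 606 shallow cells (median 2000 UMIs, 10.3% mitochondrial UMIs) led by globin genes. That cluster of shallow cells had the highest *Dkk2*, *Sfrp1* and *Frzb* of the stage, at 60.4, 94.7 and 87.2 CPM.

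At E14.5, some antagonists peaked in different clusters and others in the same cluster. *Sfrp4* stood at 461 CPM (441 to 482) in 1500 cells led by *Ibsp*, *Igfbp5* and *Alpl*, genes of bone-forming cells, which held 65.4% of its counts. *Sfrp2* stood at 233 CPM (209.5 to 259) in 564 cells led by *Osr1*, *Ebf2* and *Ogn*, 50.1% of its counts, where *Frzb* was at its lowest, 11.2 CPM. *Dkk2* and *Sostdc1* stood at 163 and 721 CPM in 492 cells led by *Ccnd1*, *Sst* and *Barx1*, where *Wif1* was also highest, at 130 CPM. *Sfrp1*, *Frzb* and *Dkk3* were highest in the *Ibsp*-led cells, at 73.4, 97.6 and 21.0 CPM. For these genes the interval overlapped that of the next cluster. *Dkk1* stood at 61.9 CPM (54.6 to 70.0) in 624 cells led by *Crym*, *Dlx2* and *Fgf3* and at 66.3 CPM (56.2 to 77.8) in 487 cells led by *Hist1h2bc*, *Ung* and *Lgals7*. The sum of markers of dental mesenchyme was highest in the same pair of clusters, at 848 and 653 CPM, among clusters of at least 50 cells, and *Sfrp4* was at its lowest there, at 11.1 and 14.05 CPM.

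At E16.5, *Sfrp2* stood at 1504 CPM (1455 to 1555) in 423 cells led by *Col8a1*, *Lratd1* and *Lypd1* and at 1448 CPM (1403 to 1495) in 415 cells led by *Rgs5*, *Pdzrn4* and *Acta2*. Together they held 36.5% and 40.2% of its counts, and every other cluster was at 385 CPM or less. The highest *Sfrp2* level of a mesenchyme-like cluster at E14.5 had been 233 CPM. Both clusters were also the highest in *Frzb*, at 164 and 141 CPM, and *Sostdc1*, at 1000 and 702 CPM. *Sfrp4* stood at 763 CPM (730.1 to 797) in the *Rgs5*-led cluster, with 63.6% of its counts, and at 118 CPM in the *Col8a1*-led cluster. *Rgs5* and *Acta2* are also known from pericytes, the contractile cells around small vessels.

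A cluster of 338 cells led by *Bmp3*, *Igf1* and *Calca* had the highest *Dkk2*, at 379 CPM (352 to 408), *Wif1*, at 456 CPM (426 to 487), *Sfrp1*, at 111 CPM, and *Dkk3*, at 48.5 CPM, and for the last pair the interval overlapped that of the next cluster. It held 52.3% of the *Dkk2* counts. *Dkk1* stood at 100.2 CPM (88.6 to 113) in 220 cells led by *Plac8*, *Smpd3* and *D030025E07Rik*, with 53.7% of its counts and a *Dkk1* UMI in 35.9% of cells. *Panx3* and *Ifitm5*, genes of cells that lay down mineralized matrix, were among the 10 leading genes. The markers of bone-forming cells, *Runx2* among them, summed to 397.5 CPM, against 303 to 1121 CPM in the other clusters of at least 50 cells. *Runx2* itself stood at 52.2 CPM in this cluster, its lowest of the stage. There *Sfrp2* (12.01 CPM), *Sfrp4* (6.005 CPM), *Sfrp1* (10.1 CPM) and *Sostdc1* (48.8 CPM) were at their lowest of the stage. The cluster of 44 cells led by *Dsc3*, *Dsp* and *Isl1* had a median of 13653 UMIs, 1284 CPM of the epithelial markers and 30.5 CPM of *Sfrp5*. Whether its cells were doublets was not tested. Without such mixed clusters the counts of antagonists past 2-fold were the same.

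**Figure D4:**
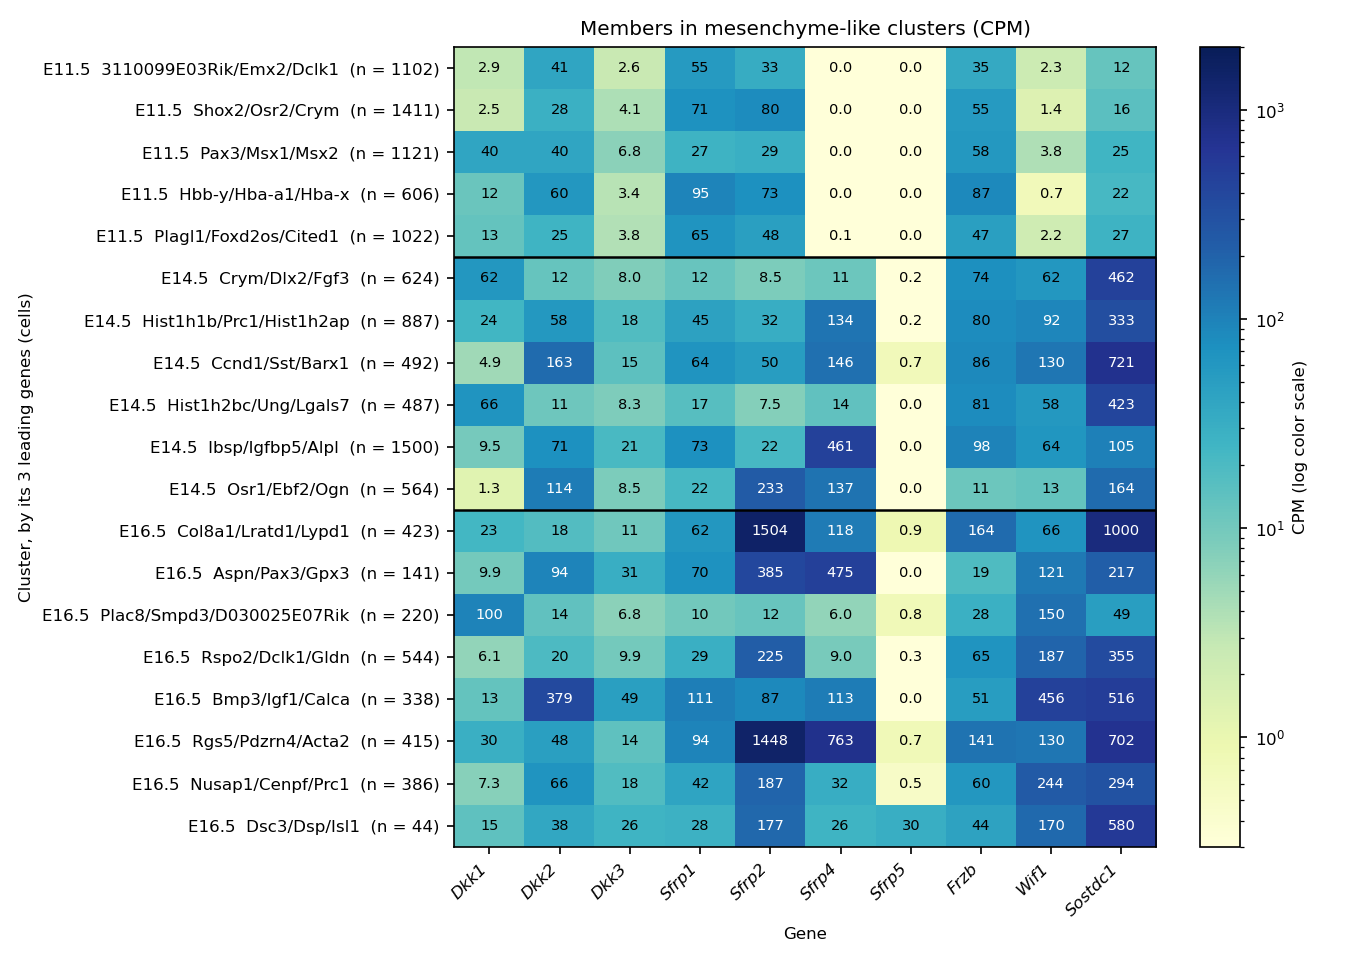
Level of each antagonist (CPM, log color scale, printed in each cell of the map) in the mesenchyme-like clusters of at least 40 cells, grouped by stage and each called by its 3 leading genes. At E11.5 *Sfrp4* is at 0.135 CPM or less and *Wif1* at 3.83 CPM or less in every cluster drawn, and at E16.5 *Sfrp2* reaches 1504 and 1448 CPM in the *Col8a1*- and *Rgs5*-led clusters.

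Single cells carried several antagonists at once more often in the later mesenchyme. After thinning to 2000 UMIs, 3 or more of the 10 genes were seen in 0.615%, 8.86% and 24.8% of mesenchyme-like cells, in order of stage, and in 0.161% and 0.501% of epithelium-like cells of the later stages. In endothelium-like cells of the later stages the shares were 0.901% and 0%. Before thinning they were 12.95%, 21.9% and 62.8% in mesenchyme-like and 3.99% and 8.75% in epithelium-like cells. At E16.5 *Wif1* was in 42.55% of the 275 mesenchyme-like cells with a *Dkk2* UMI (36.6 to 48.6) and in 24.8% of those without (23.0 to 26.7). *Wif1* was in 16.2% of the 930 cells with *Sfrp2* (13.9 to 18.8) and in 33.1% of those without (30.8 to 35.5). *Sfrp4* was in 24.5% and 13.5% of the same sets. Before thinning *Wif1* was in 72.3% and 47.3% of cells with and without *Dkk2*, and in 44.97% and 62.1% of cells with and without *Sfrp2*, the latter at median depths of 5552 and 6707 UMIs. *Frzb* was in 19.1% of cells with *Sfrp2* (16.7 to 21.8) and 11.3% of those without (9.77 to 13.0) at E16.5, whereas at E14.5 it was in 7.86% (4.99 to 11.65) and 14.7% (13.55 to 15.9).

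The genes whose levels followed an antagonist most closely were found by Pearson correlation of log2(CPM + 10) over 43 groups of cells and 12156 genes. The groups share 3 libraries and are described without a test. They overlap, since epithelium-like and mesenchyme-like cells enter both as clusters and as whole lineages. Erythroid-like cells are also among the groups. *Sfrp2* was closest to *Gm26771*, *Islr* and *Slit3* (r of 0.95, 0.91 and 0.90), and *Sfrp4* to *Epdr1*, *Naalad2* and *Scara5* (0.95, 0.94 and 0.93). *Frzb* was closest to *Clmp*, *Daam2* and *Prrx2* (0.94, 0.93 and 0.92), and *Sfrp1* to *Pdgfra*, *Osbpl1a* and *Cxcl12* (0.89, 0.88 and 0.88). *Prrx2* and *Pdgfra* are markers by which mesenchyme-like cells had been called. *Dkk2* was closest to *Svep1*, *Reck* and *Igf1* (each 0.90), *Dkk3* to *Adcy2*, *Frem1* and *Adgrl3* (0.82, 0.82 and 0.80) and *Dkk1* to *Thy1*, *Vegfd* and *Serpinf1* (0.80, 0.80 and 0.75). *Wif1* was closest to *Lgr6*, *Ppp1r14c* and *Ooep* (0.85, 0.82 and 0.82), and *Sostdc1* to *Olfm1*, *Nfix* and *Rac3* (0.85, 0.85 and 0.84). *Sfrp5*, which was low in most groups, was closest to *Fzd5*, a Frizzled receptor, *Cldn10* and *Col9a3* (0.81, 0.81 and 0.78).

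The other genes of the pathway were compared by the same rule. For every list compared between epithelium and mesenchyme, the shares over all genes were 3.2% higher and 3.68% lower at E14.5. At E16.5 they were 3.04% higher and 3.91% lower. Of 19 Wnt ligands, 13 had enough counts to compare epithelium with mesenchyme. At E14.5, 3 were higher in epithelium-like cells (*Wnt4*, *Wnt6* and *Wnt10a*) and 1 lower (*Wnt5a*), and the median log2 ratio was 0.45. *Wnt4* stood at 83.0 CPM in epithelium-like and 7.50 CPM in mesenchyme-like cells, and *Wnt5a* at 64.7 and 221.5 CPM. At E16.5, 3 were higher (*Wnt4*, *Wnt6* and *Wnt7a*) and 2 lower (*Wnt5a* and *Wnt9a*), with *Wnt4* at 218 and 14.46 CPM and *Wnt9a* at 0.525 and 11.3 CPM. Of the 17 receptors and co-receptors compared of 18, 4 were higher in the epithelium at E14.5, 2 were higher at E16.5, and 0 were lower. On the scale of log2(CPM + 10) the ratio was largest for *Kremen2*, which encodes a receptor for Dickkopf proteins, at E14.5 (18.6 and 1.11 CPM) and for *Fzd6* at E16.5 (29.1 and 3.19 CPM).

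Of the 10 response genes, 3 were higher and 2 lower in epithelium-like cells at E14.5, with *Ccnd1*, a cyclin, at 129.6 and 28.4 CPM and *Nkd1*, an inhibitor inside the cell, at 8.69 and 32.0 CPM in epithelium-like and mesenchyme-like cells. At E16.5, 1 was higher (*Rnf43*) and 3 lower (*Lef1*, *Nkd1* and *Tcf7*), with *Tcf7*, a transcription factor of the pathway, at 16.4 and 107 CPM. Of 8 other antagonists, 5 could be compared at E14.5 and 0 passed. At E16.5, 4 could be compared, of which *Notum* (1.11 and 20.1 CPM), an enzyme that inactivates Wnt proteins, and *Trabd2b* (8.98 and 42.1 CPM) were lower in epithelium-like cells.

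Between stages, the lists were read against the shares of all genes, 4.25%, 1.4% and 1.39% in the comparisons below. From E11.5 to E14.5 in the mesenchyme, 1 of 10 ligands, 1 of 18 receptors, 3 of 10 response genes and 1 of 4 other antagonists passed. From E14.5 to E16.5 these were 1 of 10, 0 of 18, 3 of 10 and 2 of 4 in the mesenchyme, and 2 of 11, 1 of 17, 2 of 10 and 0 of 4 in the epithelium. In mesenchyme-like cells from E11.5 to E14.5, *Wnt5a* was higher (80.1 and 221.5 CPM), *Fzd4* lower (log2 ratio -1.05), *Tcf7* higher (5.003 and 22.4 CPM), *Ccnd1* (369 and 28.4 CPM) and *Axin2* (96.5 and 28.1 CPM) lower, and *Apcdd1*, a membrane-bound Wnt inhibitor, lower (35.4 and 9.67 CPM). From E14.5 to E16.5, *Wnt6*, *Ccnd1*, *Tcf7*, *Notum* and *Trabd2b* were higher and *Lgr5* lower, with *Tcf7* at 22.4 and 107 CPM, *Notum* at 3.001 and 20.1 CPM and *Lgr5* at 12.45 and 0.691 CPM. In epithelium-like cells, *Wnt4* (83.0 and 218 CPM), *Wnt7a* (0.709 and 12.3 CPM) and *Fzd5* (5.32 and 23.6 CPM) were higher at E16.5, and *Sp5* (33.1 and 10.3 CPM) and *Lgr5* (12.8 and 1.11 CPM) were lower.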

How the data were processed

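Wild type mandibles (E11.5) and incisor buds (E14.5, E16.5) had been sequenced with the 10x 3′ kit. The authors aligned reads to mm10 with Cell Ranger 4.0.0, and the deposited values are raw UMI counts, 1 matrix per stage. Barcodes with 700 genes or more and 20% mitochondrial UMIs or fewer were kept as cells. The members and gene lists were chosen with earlier results of these data known.

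A cell was called erythroid-like if markers of that lineage exceeded 5% of its UMIs, and otherwise took the lineage with the most markers detected, at least 2 and at least 2 ahead of the next. This rule was set after the counts had been seen. It left 14.4%, 6.37% and 6.67% of cells unassigned. Unassigned cells 1 marker short of a call numbered 527, 174 and 166, and assigned cells with no marker to spare 886, 472 and 303. In every cluster within a lineage, the 10 leading genes over cells of other lineages held more of its own markers than of any other lineage. Cells had been called by these same markers, so this was largely fixed in advance and is no check on the calls. Over other mesenchyme-like cells of the stage, the 10 leading genes held 6 erythroid markers in the globin-led cluster of E11.5. In the *Dsc3*-led cluster of E16.5 they held 4 epithelial markers. Erythroid-like cells of E14.5 and E16.5 carried 1611 and 1968 CPM of mesenchymal markers and were not used as a background. Scrublet's own threshold called 0, 0 and 2 doublets and so did not work, and as an alternative the 5% highest scores were left out.

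Counts were summed per group and given as CPM, with exact Poisson intervals, exact Clopper-Pearson intervals for shares and exact conditional intervals for ratios. Clustering used scanpy 1.11.5 (log normalization, 2000 variable genes without the members, 20 principal components, Leiden resolution 0.4), and other values numpy 2.4.6 and scipy 1.17.1. The calculation of ratios was checked on simulated counts with known folds. Alternatives changed the cell filter, the CPM added, the minimum count, the depth, the lineage call, doublets, the weight of cells and the scaling. Genes named are the 10 members, by list up to 4 pathway genes with the largest and smallest ratios past 2-fold or all of a count up to 5, and the 3 genes most like each member.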

Additional observations from a re-analysis of the deposited data

Results flagged for a closer look

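For 4 antagonists the change from E14.5 to E16.5 pointed in opposite directions in epithelium-like and mesenchyme-like cells, with both counting intervals clear of equality. *Dkk2* and *Sfrp4* also pointed in opposite directions. The epithelial interval of *Dkk2* (0.408 to 1.51) and the mesenchymal interval of *Sfrp4* (0.954 to 1.05) included equality. The share of all genes with opposite directions is not given here, so the count cannot be read against it. The differences between the tissues were not tested, since each stage is 1 sample. *Sfrp2* at E16.5 was at 0.697 times its E14.5 level in epithelium-like cells and at 13.0 times in mesenchyme-like cells, although the epithelial direction turned (log2 ratio 0.45 in place of -0.24) when lineages were taken from Leiden clusters. *Wif1* was at 0.501 times in epithelium-like cells and at 2.77 times in mesenchyme-like cells. Of its epithelial counts at E14.5, 79.9% lay in the 51 cells led by *Shh*, *Fgf4* and *Thbs1*. The other E14.5 clusters of at least 50 cells stood at 2.87 to 18.9 CPM of *Wif1*, below the 21.7 CPM of all epithelium-like cells at E16.5. The epithelial direction of *Wif1* therefore rests on that cluster. *Dkk1* was at 14.7 times in epithelium-like cells, from 3 counts to 134, and at 0.840 times in mesenchyme-like cells. *Sfrp1* was at 0.456 times, from 8.69 to 3.96 CPM, and at 1.32 times.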

How the results depend on the processing

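No paired analysis was possible because the matrices carry no sample for a cell, and no sample could be left out for the same reason. Epithelium could not be compared with mesenchyme at E11.5, with 12 epithelium-like cells. Each of 5 counts of antagonists past 2-fold was recomputed under 12 alternatives, of which leaving out mixed clusters was chosen after seeing the data. With 1 CPM added, 5 antagonists in place of 3 passed between E11.5 and E14.5 in the mesenchyme, with *Dkk1* and *Dkk3*, and 4 in place of 1 between E14.5 and E16.5 in the epithelium, with *Dkk1*, *Sfrp4* and *Frzb*. With 50 CPM added, 3 in place of 6 passed between epithelium and mesenchyme at E14.5, without *Dkk1*, *Sfrp1* and *Sfrp2*, 5 in place of 8 at E16.5, without *Dkk1*, *Sfrp1* and *Sfrp5*, and 0 in place of 1 between E14.5 and E16.5 in the epithelium. Thinned to 2000 UMIs, 2 passed in the last comparison, with *Wif1* lower. The count for the mesenchyme between E14.5 and E16.5 stayed between 2 and 3. The other alternatives, among them other cell filters and lineage rules, left every count within 1.5 times. The shares of all genes that pass under the alternatives are not given here. The counts of antagonists under them therefore cannot be read against all genes. Of 568 ratios of single antagonists, 406 moved by less than their counting interval, 162 by more, and 0 of those called changed sign. Low counts limit some values, such as the 0.532 CPM of *Dkk1* in the E14.5 epithelium, on 3 counts.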

Other observations

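*Dkk2* was seen in endothelium-like cells of every stage. They had 9, 14 and 19 counts of it in order of stage, or 12.04, 19.9 and 18.6 CPM, and 12.1%, 6.25% and 10.4% of them had a UMI. *Sostdc1* stood there at 31.3 and 26.4 CPM at the later stages, with intervals that overlapped those of *Dkk2*. At E16.5 the same 115 cells had 2 counts of *Sfrp2* and 1 of *Sfrp4*, which in mesenchyme-like cells had 9636 and 3208 counts beside 1390 of *Dkk2*. At E14.5 the 144 endothelium-like cells had 6 counts each of *Sfrp1* and *Sfrp4*, 2 of *Sfrp2* and 22 of *Sostdc1*, beside 14 of *Dkk2*. At E11.5 the 66 cells had 5 of *Sfrp1* and 1 of *Sfrp2*, beside 9 of *Dkk2*. Whether RNA of other cells supplied these counts was not tested. The 12 epithelium-like cells of E11.5 had 21 counts of *Sostdc1*, 2 of *Sfrp2* and 1 each of *Dkk1*, *Dkk3* and *Frzb*. Glia- or neural crest-like cells, too few for levels, also had counts of *Sfrp1*. These were 42 in 12 cells of E11.5, among 131704 UMIs, and 29 in 28 cells of E14.5, among 127629 UMIs.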
